A study of Mus musculus with 6 samples.

Results

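The genes described here are 7 components of the tight junction, the claudins Cldn3, Cldn4, Cldn6, Cldn7 and Cldn9 together with Ocln and Tjp1. They were taken by name from the 42450 genes listed in a table of total RNA counts, and all 7 were among the 18905 genes that had enough counts to be tested. Total RNA was profiled in 3 replicates of wild-type mouse embryonic stem cells (WT, male line E14tg2a.4) and in 3 replicates of Srrm2+/- cells, which carry a gene trap in exon 1 of one allele of Srrm2, a splicing factor gene. Both lines were grown on gelatin and then in serum-free medium with leukemia inhibitory factor. The Srrm2+/- cells are a single gene-trap line (CG0630) derived from the same E14tg2a.4 line, and per the study's methods the replicates were thawed from separately frozen batches, with WT batches of later passage than the Srrm2+/- batches. Genotype, clone and passage therefore cannot be told apart in any difference given here.

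Tight junctions seal the space between neighbouring epithelial cells near their apical side. Claudins and occludin span the membrane and face those of the adjacent cell, and ZO scaffold proteins such as ZO-1, the product of Tjp1, bind their cytoplasmic tails and tie them to actin. In the early mouse embryo these junctions appear as the outer cells form an epithelium. Claudin genes are also expressed in pluripotent cells.

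All 7 genes were higher in Srrm2+/- cells than in WT cells, and for each of them the lowest Srrm2+/- library lay above the highest WT library. Every one passed the test (edgeR quasi-likelihood, adjusted p under 0.05), where 25.3% of the genes tested passed in either direction and 13.6% were called higher. Of the 7, 4 (Cldn3, Cldn6, Cldn7 and Cldn9) also had a log2 fold change of at least 1, while 4.3% of the genes tested were called higher with such a change. The log2 fold changes (log2FC, Srrm2+/- minus WT, with the standard error as SE) ran from 0.47 for Tjp1 to 1.69 for Cldn3 with a median of 1.01, against a median of -0.00254 over all genes tested. Groups that do not overlap with Srrm2+/- higher were seen for 21.4% of the genes tested. As the 7 genes were chosen with earlier results of these data known, the counts beside these shares are descriptions. Values written with ± are the mean and SD over the 3 libraries of a group, and p-values measure the spread between these libraries. Adjusted p-values are from edgeR unless another test is named. In bulk RNA a higher level per cell cannot be told apart from a larger number of cells that express the gene.

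Libraries held between 54151532 and 69933465 estimated counts, with the Srrm2+/- libraries the deeper ones. Srrm2 itself was at 91.2, 98.3 and 97.7 CPM (counts scaled to a common library size with TMM factors) in WT and at 62.3, 56.2 and 59.6 CPM in Srrm2+/-, a log2FC of -0.69 (SE 0.05, adjusted p 2.38e-05). The embryonic stem cell markers Pou5f1, Sox2, Nanog and 7 others were all past the filter on low counts. Their summed level was 5400 to 5582 CPM in WT and 4664 to 4770 CPM in Srrm2+/-. Of these 10 markers, 7 were called lower and 1 higher, where 11.7% of all genes tested were called lower. Nanog had a log2FC of -0.72 (SE 0.04) and Sox2 of -0.30 (SE 0.04), while Pou5f1 was not called (log2FC -0.0399).

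Cldn4 encodes a claudin that limits the passage of cations and is a receptor for a Clostridium perfringens toxin. It is a single-exon gene on chromosome 5 (ENSMUSG00000047501, GRCm38, chr5:134945119-134946934, minus strand). The WT libraries had Cldn4 at 61.1, 65.4 and 60.9 CPM, and the Srrm2+/- libraries at 98.9, 89.8 and 90.8 CPM. The groups were far apart relative to their spread, and the fold change was moderate. From 62.5 ± 2.55 to 93.2 ± 4.98 CPM, Cldn4 rose by 0.58 on the log2 scale (SE 0.05, adjusted p 6.84e-05).

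Cldn3, a claudin of the barrier-forming kind that binds the same toxin, lies 39279 bases from Cldn4 on the opposite strand (ENSMUSG00000070473, chr5:134986214-134987472, plus strand). Its level was 1.35, 1.30 and 1.44 CPM in WT and 5.27, 3.93 and 3.99 CPM in Srrm2+/-, which correspond to 75, 75 and 77 counts and to 365, 271 and 246 counts. Cldn3 thus started from a far lower level than its neighbour and had the largest fold change of the 7 genes. The log2FC was 1.69 (SE 0.16, adjusted p 0.000113), a 3.23-fold difference. In length-scaled terms, Cldn3 per Cldn4 was 0.0319, 0.0286 and 0.0340 in WT and 0.0769, 0.0631 and 0.0633 in Srrm2+/-. This ratio, which does not depend on scaling between libraries, was higher in 3 of 3 Srrm2+/- libraries (exact permutation test, two-sided, p = 0.1, the smallest that 3 against 3 libraries can give, and 0.15 adjusted over 3 ratios chosen after the values were seen).

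The 250 bases before the RefSeq start of this neighbouring pair are shown because both genes rose, by different amounts. Capitals mark matches to 7 motifs searched on both strands, which were an E-box (CACCTG), the GC box (GGGCGG), the AP-1 site (TGANTCA), the cyclic AMP response element (TGACGTCA), the MCAT element (CATTCC), a Grainyhead-like motif (AACCNGTT) and the CArG box of SRF. The sequences are from RefSeq on GRCm38.p6, written in the direction of transcription, from chr5:134946935-134947184 (minus strand) for Cldn4 and chr5:134985964-134986213 (plus strand) for Cldn3.
Cldn4: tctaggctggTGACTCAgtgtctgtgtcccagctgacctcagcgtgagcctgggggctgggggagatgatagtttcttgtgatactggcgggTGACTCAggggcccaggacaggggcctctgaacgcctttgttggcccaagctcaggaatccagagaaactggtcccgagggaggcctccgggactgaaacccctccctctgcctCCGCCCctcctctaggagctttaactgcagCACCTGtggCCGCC
Cldn3: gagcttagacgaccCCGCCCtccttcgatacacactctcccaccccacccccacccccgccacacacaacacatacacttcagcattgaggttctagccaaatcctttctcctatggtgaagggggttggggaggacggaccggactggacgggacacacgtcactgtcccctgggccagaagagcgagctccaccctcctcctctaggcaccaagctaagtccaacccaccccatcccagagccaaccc
The Cldn4 stretch holds the AP-1 letters TGACTCA at positions -240 and -158, GC boxes at -44 and -5 (the last base of the latter lies past the stretch) and an E-box at -14. The Cldn3 stretch holds a GC box at -236 and no match to the other motifs.

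Cldn6, known from embryonic epithelia and pluripotent cells, and Cldn9, known from the inner ear, lie tail to tail on chromosome 17 with 137 bases between them (Cldn6, ENSMUSG00000023906, chr17:23679249-23682446, plus strand; Cldn9, ENSMUSG00000066720, chr17:23682584-23684026, minus strand). Cldn6 was at 1.78, 3.17 and 1.89 CPM in WT and at 5, 5.68 and 7.13 CPM in Srrm2+/-. WT replicate 2 was the high WT library, with 183 counts, and it stayed below every Srrm2+/- library. The log2FC of Cldn6 was 1.38 (SE 0.23, adjusted p 0.00258). Without WT replicate 2 it was 1.69, the highest value among the alternatives.

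Cldn9 was the lowest of the 7 genes, at 51, 44 and 59 counts for WT against 120, 149 and 104 for Srrm2+/-. In CPM these were 0.919, 0.761 and 1.1 in WT and 1.73, 2.16 and 1.69 in Srrm2+/-. The log2FC was 1.01 (SE 0.20, adjusted p 0.00641), the highest adjusted p of the 7. Length-scaled Cldn6 per Cldn9 was 1.73, 3.70 and 1.52 in WT and 2.57, 2.34 and 3.76 in Srrm2+/-, so that the groups overlapped (exact permutation test, two-sided, p = 0.4). The annotated transcripts of the pair share 7 of their 31-base words, which is 0.407% of the words of Cldn6 and 0.495% of those of Cldn9. Srrm2 begins 106505 bases beyond Cldn9 on the same chromosome, and a part of that position in the levels of the pair was not tested.

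Cldn7, a claudin found along the lateral membrane as well as at the junction, is on chromosome 11 (ENSMUSG00000018569, chr11:69964779-69967885, plus strand). Its level was 6.38, 5.80 and 6.50 CPM in WT, against 15.4, 13.2 and 13.1 CPM in Srrm2+/- cells. The lowest Srrm2+/- value was above the highest WT value by more than the range within either group. The log2FC was 1.16 (SE 0.09, adjusted p 3.73e-05), a 2.23-fold difference.

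Ocln encodes occludin, a tetraspan protein of the MARVEL family that helps to set the branching of junction strands, and is on chromosome 13 (ENSMUSG00000021638, chr13:100496507-100552718, minus strand). It was at 8.47, 7.75 and 7.73 CPM in WT and at 16.1, 15.2 and 15.6 CPM in Srrm2+/-. Its libraries scattered little within a group, and the level was close to doubled at 1.96-fold (log2FC 0.97, SE 0.07, adjusted p 1.95e-05). Tjp1, which encodes the scaffold ZO-1, is on chromosome 7 (ENSMUSG00000030516, chr7:65296165-65527781, minus strand). Tjp1 was at 82.1, 86.1 and 85.3 CPM in WT and at 112, 116 and 123 CPM in Srrm2+/-, a log2FC of 0.47 (SE 0.05, adjusted p 0.000132). Its rise was the smallest of the 7, and the length-scaled ratio of Ocln per Tjp1 was 0.179, 0.157 and 0.158 in WT against 0.250, 0.229 and 0.220 in Srrm2+/- (exact permutation test, two-sided, p = 0.1, adjusted 0.15).

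**Figure D1:**
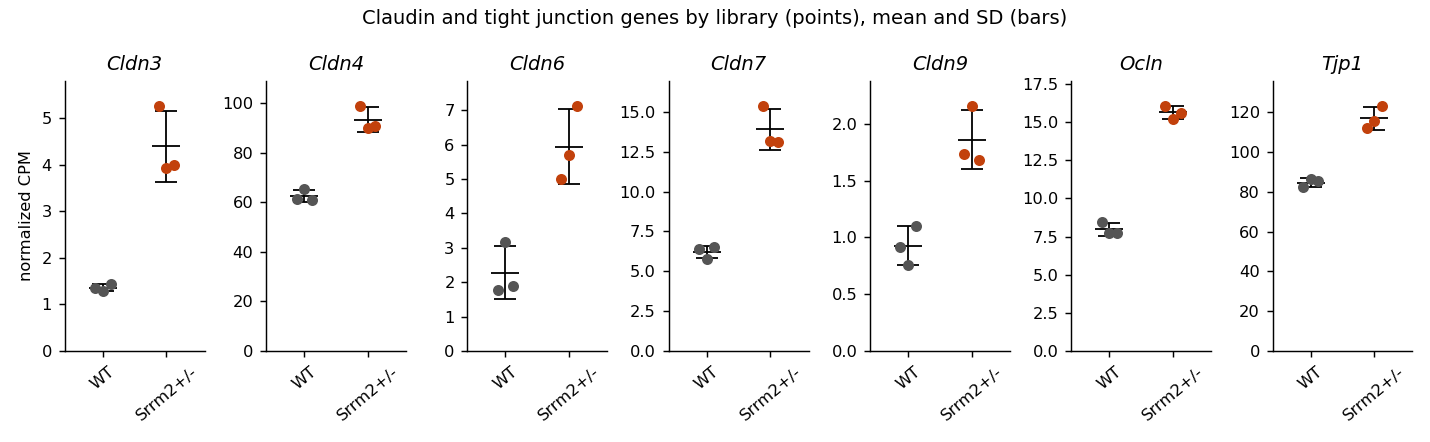
Normalized CPM of the 7 genes in the 3 WT (grey) and 3 Srrm2+/- (orange) libraries, each panel with its own axis from 0, with bars at the mean ± SD. In every panel the 3 Srrm2+/- points lie above the 3 WT points, with the widest relative gap for Cldn3 and the narrowest for Tjp1.

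Ranked by log2FC from the highest, Cldn3 was 403rd of the 18905 genes tested, Cldn6 579th, Cldn7 792nd, Cldn9 1016th, Ocln 1066th, Cldn4 2025th and Tjp1 2543rd. The members of highest level, Cldn4 and Tjp1, had the smallest fold changes, as the plot of level against change shows. Few short words of sequence were shared with other genes. The largest share of 31-base words found in transcripts of other genes was 1.22%, for Cldn3, and the antisense gene Wbscr25 overlaps the end of Cldn3. The mean of Wbscr25 was 0.391 CPM for WT against 0.346 CPM for Srrm2+/- (log2FC -0.17, adjusted p 0.724).

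**Figure D2:**
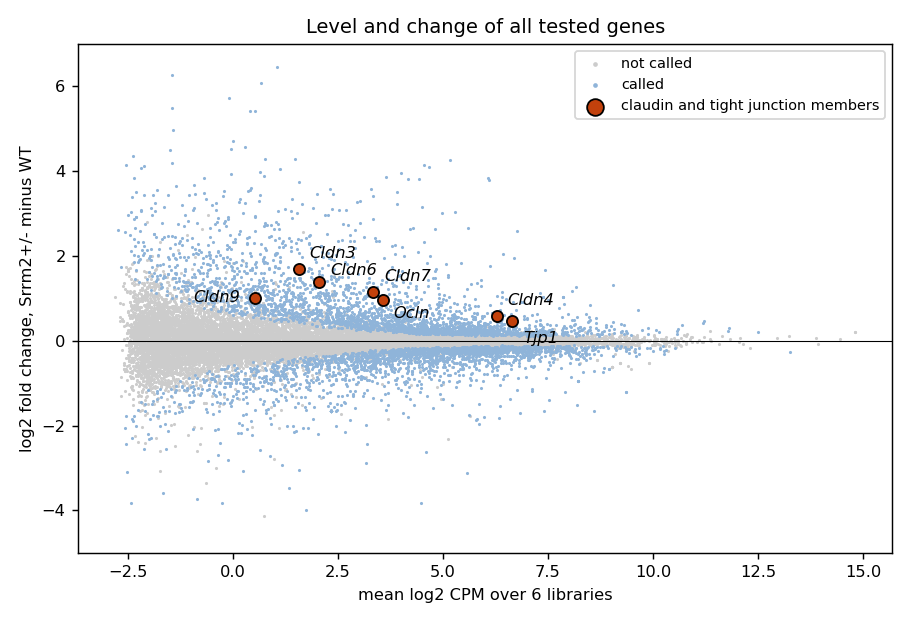
Log2FC (Srrm2+/- minus WT) against mean log2 CPM for the genes tested, with called genes in blue, others in grey and the 7 members as labelled orange points; 16 genes lie outside the plotted range of -5 to 7. The members lie between 0.47 and 1.69, and all are among the called genes.

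To compare the claudins with each other, CPM were divided by the length of the longest annotated transcript. On this scale (CPM per kb) Cldn4 was by far the most abundant claudin of the 5 in WT, at 34.4 ± 1.4, followed by Cldn7 at 4.66 ± 0.28. Cldn6 at 1.4 ± 0.47 and Cldn3 at 1.08 ± 0.0562 came next and did not differ beyond their spread, and Cldn9 was lowest at 0.643 ± 0.118. In Srrm2+/- the order was the same, with Cldn4 at 51.3 ± 2.74, Cldn7 at 10.4 ± 0.97, Cldn6 at 3.66 ± 0.67, Cldn3 at 3.49 ± 0.60 and Cldn9 at 1.29 ± 0.18 CPM per kb. Cldn6 and Cldn3 again lay within each other's spread. Among the remaining claudins Cldn12 stood out in level, at 9.97 CPM per kb in WT and 11.3 in Srrm2+/-. Tjp1 was at 12 ± 0.30 CPM per kb in WT and 16.6 ± 0.82 in Srrm2+/-, and Ocln at 1.97 ± 0.10 and 3.86 ± 0.11.

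The summed level of the 5 claudins was 41.2, 43.9 and 41.5 CPM per kb in WT and 74.5, 67.5 and 68.6 in Srrm2+/-. It was higher in 3 of 3 Srrm2+/- libraries (exact permutation test, two-sided, p = 0.1, the smallest possible here). Cldn4 made up 81.5 ± 0.62% of this sum in WT and 73.1 ± 0.19% in Srrm2+/- (p = 0.1, exact permutation test). In absolute terms Cldn4 still contributed the most to the rise. The share of Cldn7 went from 11.1 ± 1.02% to 14.8 ± 0.60% and that of Cldn3 from 2.57 ± 0.20% to 4.96 ± 0.58%, without overlap between the groups. Cldn6 held 2.67, 4.45 and 2.80% in WT and 4.14, 5.2 and 6.41% in Srrm2+/-, and those groups overlapped (exact permutation p = 0.2). The share of Cldn9 also overlapped, at 1.53 ± 0.32% and 1.85 ± 0.33% (exact permutation p = 0.4).

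**Figure D3:**
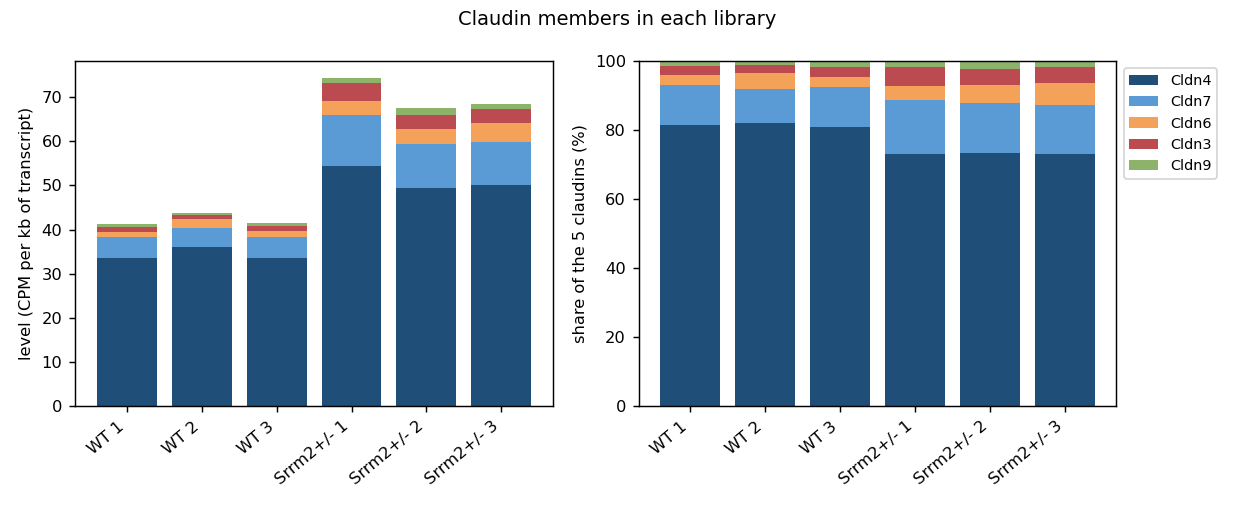
Stacked levels of the 5 claudins in each library, as CPM per kb of transcript (left) and as a percentage of their sum (right). The bars of the 3 Srrm2+/- libraries are taller, at 67.5 to 74.5 against 41.2 to 43.9 CPM per kb, and Cldn4 fills 72.9 to 73.3% of them against 80.9 to 82.1% in WT.

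The promoters of the members were examined next, since the genes moved in the same direction. RefSeq windows of 250 bases before to 50 bases after a start were matched for 6 of the 7 members, in 8 windows. The E-box CACCTG, a motif bound by the ZEB and SNAI repressors of epithelial genes, was present in 6 of the 8 windows. Of all 32851 windows, 20.2% held it. By gene, the E-box was present for 5 of the 6 members, a count that is not on the scale of the share of windows. The windows of the first and second starts of Ocln overlap. The matches are shown with 10 bases on each side where the window allows, in the direction of transcription on GRCm38.p6, with the E-box in capitals and its coordinates in parentheses. Positions are counted from the start as 1, and those before the start are negative.
Cldn4 at -14 (chr5:134946943-134946948): ttaactgcagCACCTGtggccgccct
Cldn4 at 12 (chr5:134946918-134946923): tttcttgttgCAGGTGcaggcaggaa
Cldn3 at 32 (chr5:134986245-134986250): aagccacaggCAGGTGcaggggcagt
Cldn7 at -97 (chr11:69965324-69965329): tcttcctcttCACCTGgacgaggagg
Cldn7 at -57 (chr11:69965364-69965369): acttccggttCAGGTGagtgtccctt
Ocln at -68 (chr13:100552561-100552566): aggggctcggCAGGTGggtcccagcg
Ocln at 8 (chr13:100552706-100552711): atcggagtttCAGGTGaatgggtcac
Cldn6 at -93 (chr17:23679272-23679277): gaaacgcacgCAGGTGgctatcgccg
Cldn6 at 41 (chr17:23679405-23679410): gtctcttttgCAGGTGagcc
The Cldn7 matches belong to the second of its starts. The Ocln match at 8 is counted from the first of its starts, and the same bases lie at -213 from the second. Cldn4, Cldn7, Ocln and Cldn6 each had a pair of E-boxes, and Cldn3 had 1. The only Tjp1 window (chr7:65371195-65371494, minus strand) had none of these letters. It lies inside the annotated gene, away from the 5' end at 65527781, where no window was matched.

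Cldn6 and Cldn7 also shared the cyclic AMP response element, at nearly the same distance from their starts. These windows are shown because this motif is rare, at 1.79% of all windows, and occurred in 2 of the 8.
Cldn6 at -40 (chr17:23679325-23679332): ggtggtccagTGACGTCAttgagacttt
Cldn7 at -38 (chr11:69965383-69965390): gtcccttcagTGACGTCAggtcactcga
The GC box, present in 35.7% of all windows, was found in 7 of the 8 windows and for each of the 6 members. The MCAT element bound by TEAD factors (14.7% of all windows) was found for Cldn6 and for the first start of Cldn7, and the AP-1 site (7.81%) for Cldn4. Neither the Grainyhead-like motif (2.09%) nor the CArG box (1.63%) matched in any of the 8 windows. A match describes the letters and not a bound site.

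Genes around the tight junction were then compared by lists of known roles. Of 89 tested genes in 8 lists, 47 were called, 42 of them higher and 5 lower, which is 52.8% called against 25.3% of all genes tested. The median log2FC over the 89 genes was 0.31. At the same threshold, 8 of the 47 calls were lost in at least 1 of up to 14 other fits and none changed direction, while stricter call rules left 34 (adjusted p under 0.01) and 16 (a log2FC of at least 1 in size). As the lists were put together with earlier results of these cells known, the shares are descriptions.

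Among the other claudins only Cldn1 was called, 1 of 8 tested (12.5%). Cldn1, the claudin of the skin barrier, was counted 1, 0 and 0 times in WT against 54, 25 and 44 times in Srrm2+/-. Summed over libraries it was 103-fold higher relative to library size (95% exact Clopper-Pearson interval 18.1 to 4089, covering counting error only). The edgeR log2FC was 6.27 (SE 0.75, adjusted p 0.000394). As the WT side holds 1 count, and an exact 0 in estimated counts can be a failed estimate, the size of the fold is uncertain. Cldn12, a claudin without the usual ZO-binding tail, was at 37.4 ± 1.28 CPM for WT against 42.3 ± 2.80 CPM for Srrm2+/- and did not pass (log2FC 0.18, adjusted p 0.0548). The difference in Cldn12 passed in 3 of 14 alternatives, over which the adjusted p ran from 0.0162 without Srrm2+/- replicate 1 to 0.176 without Srrm2+/- replicate 3. Cldn5, Cldn15, Cldn19, Cldn20, Cldn34c1 and the claudin-domain gene Cldnd1 had log2FC values of 0.87, 0.20, -0.57, 0.32, -0.0284 and 0.11 and did not pass, and the signs of Cldn15, Cldn20 and Cldn34c1 turned under at least 1 alternative. A further 18 claudin genes were below the filter, 9 of them with 0 counts in every library and the others with at most 14 counts in any library.

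Of the other membrane proteins of the junction, 8 of 12 were called higher and 2 lower. Marveld3, a relative of occludin, rose from 1.73 ± 0.42 to 4.46 ± 0.51 CPM, with log2FC at 1.36 (SE 0.19, adjusted p 0.000833). Its paralog Marveld2, which encodes tricellulin and is the next tested gene beside Ocln, was at 2.38, 0.138 and 0.971 CPM in WT and at 3.19, 2.12 and 2.87 CPM in Srrm2+/-. WT replicate 1 lay within the Srrm2+/- range of Marveld2, and the difference did not pass (log2FC 1.23, SE 0.64, adjusted p 0.204), and the value rested on single libraries, at 2.31 without WT replicate 1 (adjusted p 0.0259) and at 0.70 without WT replicate 2 (adjusted p 0.22). F11r, which encodes the junctional adhesion molecule JAM-A, rose by 0.44 (SE 0.04), and Crb3, an apical polarity protein, by 0.48 (SE 0.08). The fall of Jam2 was clear, from 114, 118 and 119 CPM to 70.8, 66.1 and 63.5 CPM, at a log2FC of -0.81 (SE 0.05, adjusted p 7.06e-06). Ildr1, which encodes an angulin of tricellular contacts, fell in the same measure, from 44.6 ± 1.04 to 25.3 ± 1.27 CPM (log2FC -0.82, SE 0.05).

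Proteins of the cytoplasmic plaque were called higher in 11 of 21 cases and lower in none. ZO-3, from Tjp3, was at 31.2 ± 1.82 and 30.3 ± 2.37 CPM with a log2FC of -0.0435 (SE 0.07, adjusted p 0.705), a sign that turned under 2 alternatives. Cingulin, a ZO-binding protein from Cgn, rose by 1.34 (SE 0.12), with 16, 16.8 and 17.2 CPM in WT against 33.6, 46.5 and 46.4 CPM in Srrm2+/-. The scaffold Patj rose by 1.35 (SE 0.07) and its paralog Mpdz by 0.93 (SE 0.07). The largest changes of the list were in the angiomotins, which bind actin, junction scaffolds and YAP. Amot rose by 2.52 (SE 0.12), Amotl1 by 1.65 (SE 0.09) and Amotl2 by 1.36 (SE 0.05).

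The polarity complex genes were called higher in 8 of 14 cases and lower in none, at a small median of 0.19. The largest among those past a mean log2 CPM of 1 was Pard6b, a subunit of the PAR complex, which rose from 10.7 to 20.8 CPM (log2FC 0.96, SE 0.06). Pard6g rose by 0.40 (SE 0.09) and Llgl2, a basolateral determinant, by 0.36 (SE 0.04). Desmosome genes were called higher in 5 of 8 cases. Ppl, Dsp and Perp, which encode periplakin, desmoplakin and a desmosome membrane protein, rose by 1.38, 1.30 and 1.22 (SE 0.14, 0.06 and 0.07).

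Transcription regulators of epithelial genes went in both directions, with 3 of 13 called higher and 2 lower. That is 38.5% called, against 25.3% of all genes tested. The calls of Esrp2 (higher) and Grhl1 (lower) were each lost in 5 of 14 alternatives. Grhl2, an activator of claudin genes in several epithelia, was at 25.4, 24.7 and 29.9 CPM in WT and at 48.3, 48.9 and 51.3 CPM in Srrm2+/-, a log2FC of 0.89 (SE 0.07, adjusted p 4.42e-05). Its groups were well separated. Ovol2, a repressor of mesenchymal genes, had a log2FC of 0.47 (SE 0.15, adjusted p 0.0518), and passed in 3 of 14 alternatives, over which the adjusted p ran from 0.0327 to 0.156. Esrp1, an epithelial splicing regulator, rose by 0.44 (SE 0.06), and Tfap2c, a trophoblast and epiblast factor, fell by 0.71 on the log2 scale (SE 0.05).

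The repressors also went in both directions, with 3 of 6 called higher and 1 lower. Zeb1, whose product binds the E-box motif above, was at 23.6, 26.4 and 21.9 CPM in WT and at 13.4, 15.8 and 14.5 CPM in Srrm2+/-, a log2FC of -0.72 (SE 0.09, adjusted p 0.000385). Its paralog Zeb2 was at 4.77 ± 0.28 and 7.59 ± 1.5 CPM and rose by 0.67 (SE 0.14, adjusted p 0.00876). Twist1 rose by 1.12 (SE 0.14) at a level of 1.61 CPM in WT. Length-scaled, Zeb1 was at 4.13 CPM per kb in WT and 2.51 in Srrm2+/-, and Zeb2 at 0.523 and 0.832. A part of these factors in the levels of the members was not tested.

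Among proteases and claudin-binding partners, 3 of 7 were called higher. Prss8, a membrane-anchored serine protease of epithelia, rose from 2.88 ± 1.13 to 10.1 ± 2.07 CPM (log2FC 1.81, SE 0.27, adjusted p 0.00144). Its activator partner St14 was called at 0.29 (SE 0.09, adjusted p 0.0423), but St14 lost the call with limma voom (adjusted p 0.0536) and without WT replicate 1, 2 or 3 or Srrm2+/- replicate 1 (adjusted p 0.0901, 0.115, 0.0765 and 0.0521). Epcam, a partner of Cldn7, was listed with 0 counts in 5 libraries and 19 in Srrm2+/- replicate 3. An exact 0 in estimated counts can be a failed estimate, so no level is read from it.

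**Figure D4:**
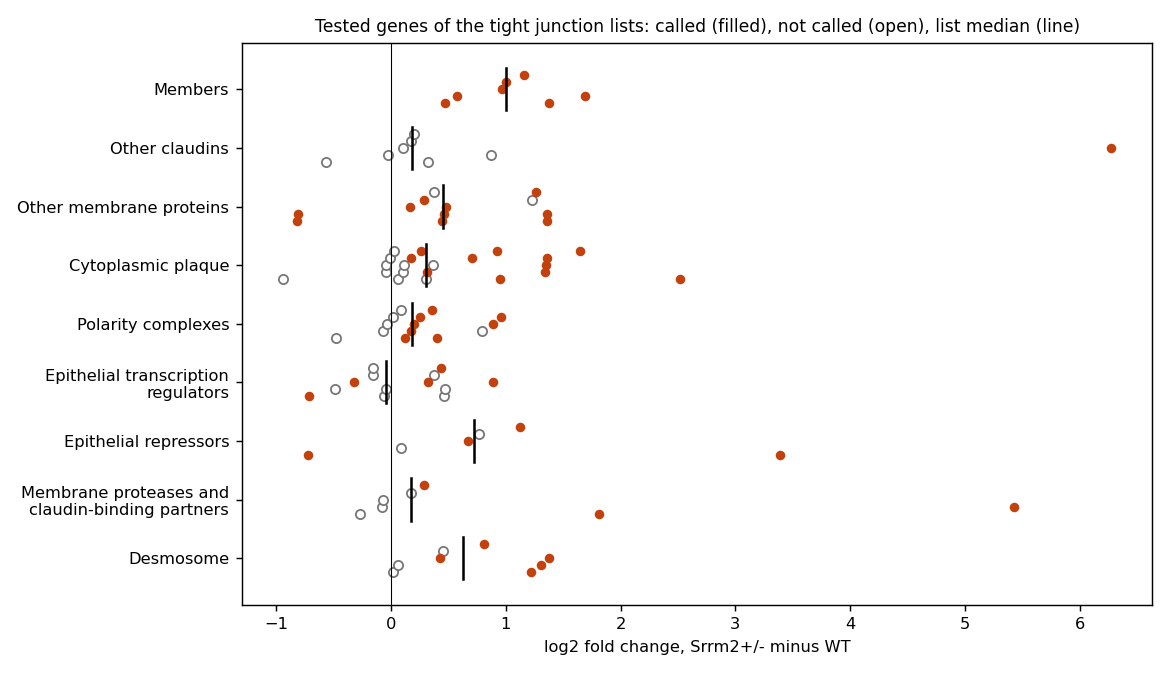
Log2FC values of the tested genes in each list, with called genes filled, others open and the list median as a black line. The 7 members are all filled with a median of 1.01, while the other claudins lie mostly near 0 with Cldn1 alone far to the right.

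Neighbouring genes were compared to see whether whole loci moved. Of 11 genes that lie next to or overlap a member and are no members themselves, 2 were called, where 25.3% of all genes tested were called. Tnfrsf12a, a receptor of the tumour necrosis factor family 1780 bases from Cldn6, rose from 6.27 ± 0.80 to 21.1 ± 1.86 CPM (log2FC 1.75, SE 0.10, adjusted p 7.13e-06). Mettl27, 2481 bases from Cldn4, rose by 0.28 (SE 0.05). Elp5, which begins 336 bases from the end of Cldn7, was at 46.1 ± 1.84 and 45.7 ± 0.99 CPM with a log2FC of -0.0116 (adjusted p 0.886). Gtf2h2, 3927 bases from Ocln, was at -0.0357 (adjusted p 0.622) and Abhd11, beyond Cldn3, at -0.056 (adjusted p 0.408).

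The genes whose profile over the 6 libraries was closest to each member were sought by the root mean square difference of log2 CPM relative to the WT mean, among 12026 genes whose mean log2 CPM reached 1. Cldn7 was closest to Prom1, the apical membrane glycoprotein prominin (difference 0.0506 on the log2 scale), and Ocln to Rhbdf1 (0.0374). Cldn4 was closest to Hcfc1r1 (0.0206), Tjp1 to the peroxiredoxin Prdx6 (0.0285) and Cldn6 to Dok2 (0.204). Cldn9 was closest to Gm23935 (0.115), a short RNA gene with the same values as Gm24270. The distance for Cldn6 was the widest of these. All these profiles share the same libraries and scaling.

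Markers of other cell types were measured in the same libraries. Over all genes tested, 25.3% were called in either direction, 13.6% were called higher and 11.7% lower. The lists are short, so the counts below are descriptions. The surface epithelium list had 4 of 8 genes tested and 1 called, and its summed level was 25.1 to 28.2 CPM in WT and 69.4 to 78.4 CPM in Srrm2+/-. Sfn, the called gene, made up most of it, at 18.9 ± 1.73 and 67.3 ± 4.88 CPM, while the basal epithelial markers Krt5, Krt14 and Trp63 were below the filter. Trophectoderm markers had 2 of 6 tested genes called higher and 1 lower, with summed levels of 26.8 to 30.0 CPM in WT and 25.6 to 28.5 CPM in Srrm2+/-, and the defining factor Cdx2 had 0 counts in WT and 5, 8 and 17 in Srrm2+/-. Of the higher trophectoderm calls, Krt7 rose from 2.81 ± 0.20 to 7.23 ± 0.75 CPM (log2FC 1.36, SE 0.12, adjusted p 6.5e-05). Krt7 kept its call in all 14 alternatives, while the call of Eomes (adjusted p 0.0387) was lost in 8 of 13. Cdx2, Gata3, Tfap2a and Grhl3 also stand in the lists of junction-related genes. For primitive endoderm 1 of 7 tested genes was called, at summed levels of 2.61 to 3.04 and 3.57 to 4.32 CPM. Fibroblast markers had 4 of 6 tested genes called higher, of which Col1a2 rose the most, by 3.89 (SE 0.32). Thy1 (log2FC -0.70, SE 0.27, adjusted p 0.0939) and Pdgfrb (log2FC 0.23, SE 0.34, adjusted p 0.685) were not called. Dcn and Lum were below the filter. Summed levels of the fibroblast list were 3.47 to 3.68 CPM in WT and 6.94 to 10.8 CPM in Srrm2+/-. The part of such cells in the rise of the 7 members was not tested.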

How the data were processed

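Reads had been quantified by the authors with Kallisto 0.46.1 against GENCODE release M24 (mm10), and the deposited values are estimated counts for each gene without normalization. How strand was set is not stated in these sources. Estimated counts were rounded to whole numbers, and genes past filterByExpr (minimum count 10, minimum total 15) were tested with edgeR 4.0.16 (TMM, glmQLFit and glmQLFTest, two-sided, genotype as the sole term), with Benjamini-Hochberg adjustment over all genes tested. Calls required an adjusted p under 0.05. SE was the size of log2FC over the root of F. 

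Symbols, positions and lengths came from GENCODE release M21 (GRCm38). Of 55536 annotated genes, 12988 have an identifier above the highest one in the table and were not analysed here. Groups and replicate numbers came from the sample titles. No pair of libraries looked like a duplicate (chi-square per degree of freedom at least 14.7). Deviations of same-numbered replicates were not alike (correlations -0.0285, -0.0337 and -0.0300). No effect shared by number was seen, which does not exclude that same-numbered libraries were handled together. Profile distances used log2(CPM + 0.01). Named genes were the 7 members, Srrm2, the other tested claudins, per list up to 3 called genes of the largest change (mean log2 CPM of at least 1, no overlap) and those needed to read a member, the nearest genes and the closest profiles. Sfn, Col1a2, Thy1, Pdgfrb, Dcn, Lum, Krt5, Krt14, Trp63, F11r, Crb3, Patj, Mpdz, Esrp2, Grhl1, Eomes, Krt7, Tead4, Twist2 and Cldn23 were named after their values were seen. Results for a few genes that the rule names are not reported here. Members and lists were chosen with earlier results of these data known.

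Alternatives were RLE and upper quartile scaling, DESeq2 1.42.0, limma 3.58.1 voom, other filters, the replicate block, each library left out, a table without mitochondrial, rRNA and short RNA genes, and stricter call rules. The edgeR steps were tested on simulated data. They recovered 69% of 100 genes changed 2-fold and 58% of 100 genes changed 1.5-fold. Of the calls in the simulation, 10.6% fell on unchanged genes, at an adjusted p under 0.05.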

Additional observations from a re-analysis of the deposited data

How the results depend on the processing

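The 7 genes kept their direction and their call in the 14 alternatives computed for each, with a highest adjusted p of 0.0264, for Cldn9. The lowest and highest log2 fold changes were both reached by leaving out 1 library, at 1.54 and 1.77 for Cldn3, 0.53 and 0.61 for Cldn4, 1.23 and 1.69 for Cldn6, 1.08 and 1.20 for Cldn7, 0.88 and 1.15 for Cldn9, 0.949 and 1.01 for Ocln and 0.43 and 0.50 for Tjp1. When calls also needed a log2FC of 1 or more in size, 4 of the 7 genes and 16 of the 89 list genes were left, all higher, while 4.3% of all genes tested were then called higher. At an adjusted p under 0.01, 7 members and 34 list genes (30 higher, 4 lower) were called. In the other fits the number of list genes called lay between 40 and 50. With the replicate block, 7 members and 43 list genes were called (38 higher, 5 lower), and the summed claudin level kept its difference of 0.73 on the log2 scale (exact sign-flip p 0.25, the smallest that 3 pairs can give). The summed claudin level stayed between 0.69 and 0.76 and the share of Cldn6 stayed higher by 1.36 to 2.51 percentage points across their alternatives. Depth limits the low genes, such as Cldn9 with 44 to 149 counts.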

Other observations

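At low levels, other genes of the lists were higher in Srrm2+/- and were picked here after their values were seen. Twist2, from the list of epithelial repressors, was higher with log2FC at 3.39 (SE 0.66, adjusted p 0.0056). Cldn23, from the list of other claudins, was counted 0, 0 and 2 times in WT against 10, 6 and 10 times in Srrm2+/-. It was below the filter, so it has no test.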
